A study of Homo sapiens with 7 samples.

Results

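The genes described here are 10 markers and drivers of the epithelial-mesenchymal transition (EMT): the transcription factors SNAI1, SNAI2, ZEB1, ZEB2, TWIST1 and TWIST2, the cadherins CDH1 and CDH2, the filament protein gene VIM and the adhesion molecule gene EPCAM. They were chosen by name from 20033 protein-coding genes, and all 10 were found in the annotation. For each gene, the H3K4me1 intervals overlapping its GENCODE release 44 gene body (hg38) or the 50 kb on either side were taken, which gave 10 windows of 1932 kb in all. An interval is a stretch of genome that the peak caller reported as enriched over input DNA. The windows held 60 of the 64843 H3K4me1 intervals of the negative control and 89 of the 92135 of the knockdown. ChIP-seq was done in SW1990, an established human pancreatic cancer cell line, for KMT2D, EBF2 and H3K4me1. The control cells (NC) carried a negative control shRNA and the KMT2D-KD cells an shRNA against KMT2D, so both had been given an shRNA. The labels name an shRNA and the study describes stable knockdown lines, whereas its methods list only siRNAs against KMT2D, and neither labels nor methods say whether the line is 1 clone. The 7 libraries were 1 per target and condition plus 1 input whose condition is not labelled. The level of KMT2D in these cells was not analysed here. There were no replicates, so every difference below is between 2 libraries, no test was made, and the intervals quoted cover counting error only.

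KMT2D is a methyltransferase that places a single methyl group on lysine 4 of histone H3, and the resulting H3K4me1 mark is typical of enhancers and of the edges of promoters. During EMT, factors of the SNAIL, ZEB and TWIST families silence epithelial genes such as CDH1 by binding E-box sequences, and cells gain mesenchymal proteins such as N-cadherin and vimentin. In pancreatic cancer, these factors are known for their part in invasion and spread.

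The H3K4me1 intervals had few fragments at their summits. The depth recovered from the intervals was 9.89 fragments per 1000 bases in NC and 9.29 in KMT2D-KD, 0.940 times as much. Over all the genome, KMT2D-KD had 1.42 times as many intervals as NC, covering 1.54 times as many bases. The lowest number of fragments at the summit of a called interval was 8 in NC and 7 in KMT2D-KD. Over the 10 genes the intervals had 8 to 26 fragments at their summits. Here and below, the fragments of an interval or place are those at its summit, not all those within it. The epithelial and ductal markers fitting this line (KRT7, KRT8, KRT18, KRT19, CDH1 and EPCAM) all had intervals in both lists, with a median of 8.28% of the window covered in NC and 13.9% in KMT2D-KD. The same medians were 3.58% and 5.37% for 5 fibroblast markers, 2.04% and 3.26% for 3 endothelial markers and 0.641% and 1.66% for 4 leukocyte markers. The epithelial median was carried by KRT7 (23.2% in NC), KRT18 (18.0%) and KRT8 (14.7%), all on chromosome 12. In NC, KRT19 (1.83%), CDH1 (1.60%) and EPCAM (0.287%) lay below the fibroblast and the endothelial median. In KMT2D-KD they had 3.76%, 5.06% and 2.02%, still below the fibroblast median.

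To see where the mark lay around EMT genes with and without KMT2D knockdown, intervals and covered bases were counted in each window. The 2 epithelial genes and ZEB2 had several times as many covered bases in KMT2D-KD. The 2 mesenchymal genes had about as many in both when summed, and ZEB1 and TWIST1 had fewer in KMT2D-KD. These are counts of called intervals and their bases, not amounts of the mark. The 60 NC intervals covered 22.4 kb and the 89 KMT2D-KD intervals 42.5 kb, 1.90 times as much. The log2 ratio of the numbers was 0.57 (95% counting interval 0.08 to 1.07), beside 0.51 over the whole lists. When both lists were shortened to the same number of top intervals by −log10 q, the windows held 60 and 62 intervals and 22354 and 33870 covered bases. The 6 regulators held 42 NC and 52 KMT2D-KD intervals (log2 0.31, −0.31 to 0.93). CDH1 and EPCAM together had 9 in NC and 29 in KMT2D-KD (log2 1.69, 0.57 to 2.95), covering 3.59 and 12.9 kb. With both lists shortened as above, CDH1 had 8 and 15 intervals and EPCAM 1 and 3, and the counting interval of each gene included 0. Counting intervals take each interval as independent, although several lay close together. CDH2 and VIM together had 9 and 8 intervals (log2 −0.17, −1.74 to 1.38), covering 3.11 and 3.07 kb.

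**Figure D1:**
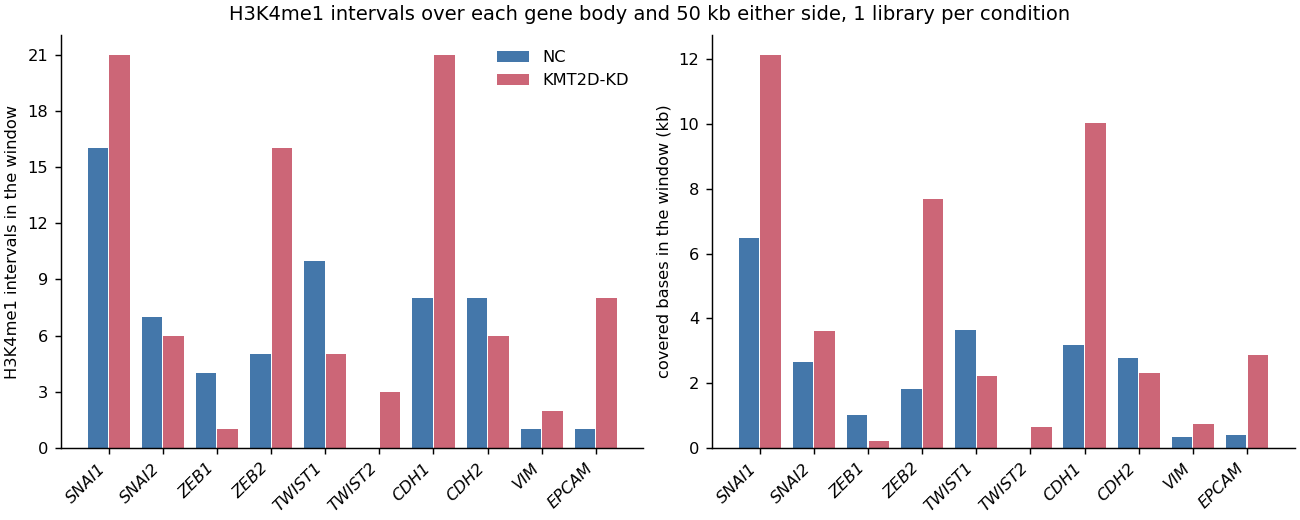
Number of H3K4me1 intervals (left) and covered bases in kb (right) over each gene body and 50 kb either side, in NC and KMT2D-KD, 1 library each. CDH1 went from 8 to 21 intervals, ZEB2 from 5 to 16 and EPCAM from 1 to 8, whereas TWIST1 had 10 in NC and 5 in KMT2D-KD and ZEB1 4 and 1.

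Most genes of the genome had more covered bases in KMT2D-KD, and the 10 genes are read against that. Covered bases were higher in KMT2D-KD for 7 of the 10 genes, beside 87.6% of the 17338 protein-coding genes with an interval in either list. They were lower for 3 of 10 (ZEB1, TWIST1 and CDH2), beside 12.4% of all. Of the 9 genes with intervals in both lists, 5 had at least 1.5 times as many covered bases in KMT2D-KD (SNAI1, ZEB2, CDH1, VIM and EPCAM), beside 62.7% of 14764 genes. A 1.5-fold or larger difference the other way was found for 2 of 9 (ZEB1 and TWIST1), beside 3.85%. The median log2 ratio of the 9 was 0.90, close to the 0.81 of all genes, and they ranged from −2.21 for ZEB1 to 2.81 for EPCAM. A ratio as low as that of ZEB1 was found for 0.142% of all genes with intervals in both lists, and one as low as that of TWIST1 for 3.14%. A ratio as high as that of EPCAM was found for 2.43% of them, and one as high as that of ZEB2 for 8.55%. These shares take no account of how many intervals lie behind a ratio. That of ZEB1 rests on 4 NC and 1 KMT2D-KD intervals and that of EPCAM on 1 and 8. With 100 kb on either side of the gene, the ZEB1 ratio was above 0 (log2 0.62).

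**Figure D2:**
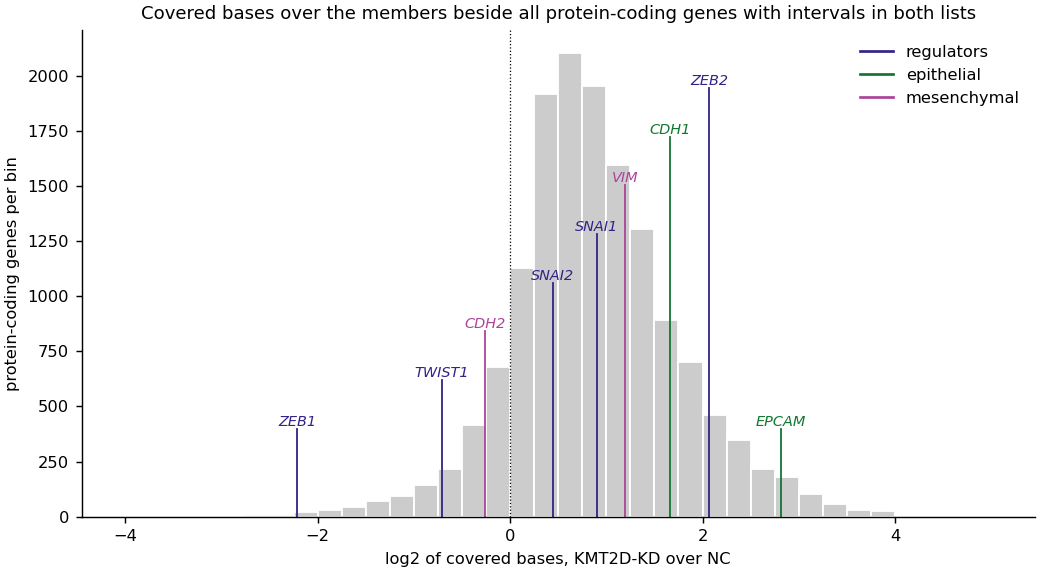
Histogram of the log2 ratio of covered bases, KMT2D-KD over NC, for the 14764 protein-coding genes with intervals in both lists (grey), with the 9 EMT genes marked by coloured lines whose height has no meaning. EPCAM and ZEB2 lie to the right of most genes, and ZEB1, TWIST1 and CDH2 lie below 0.

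The density of intervals ranged widely between the genes. SNAI1 was the most densely marked gene in both lists, with 15.1 intervals per 100 kb of window in NC (8.64 to 24.5) and 19.8 in KMT2D-KD (12.3 to 30.3). In NC it was followed by SNAI2 (6.72 intervals per 100 kb), TWIST1 (5.09), CDH1 (4.04), CDH2 (2.32), ZEB2 (1.95), ZEB1 (1.28), VIM (0.914) and EPCAM (0.702), and TWIST2 had none. In KMT2D-KD the order after SNAI1 was CDH1 (10.6 intervals per 100 kb), ZEB2 (6.23), SNAI2 (5.76), EPCAM (5.62), TWIST1 (2.54), TWIST2 (1.85), VIM (1.83), CDH2 (1.74) and ZEB1 (0.321). No neighbours in either order were separated beyond their counting intervals. The share of its window that was covered put SNAI1 above 95.8% of all protein-coding genes in NC and above 97.5% in KMT2D-KD. In a bulk ChIP, more cells carrying the mark at a place and more of the mark per cell cannot be told apart.

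Many of the places were called in 1 condition only. Of the 60 NC intervals, 32 (53.3%, 40.0% to 66.3%) overlapped a KMT2D-KD interval, beside 69.7% over the whole NC list. Of the 89 KMT2D-KD intervals, 31 (34.8%, 25.0% to 45.7%) overlapped an NC interval, beside 46.6% of that list. Thus 28 NC and 58 KMT2D-KD intervals were found in 1 list only. Allowing a gap of 1000 bases, 42 NC and 43 KMT2D-KD intervals had a counterpart. Intervals found in 1 list only had a median of 11 fragments in either condition, and those found in both had 13, so the former lay nearer the calling limit. A stronger interval could still be unique: the strongest NC-only interval had 17 fragments and the strongest KMT2D-KD-only interval 23.

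At the 30 places called in both lists, the number of fragments at the highest summit, divided by depth, differed by a median log2 of 0.17 between KMT2D-KD and NC. It was higher in KMT2D-KD at 17 places and lower at 13, between −0.68 and 0.91, and at 0 of the 30 did the counting interval exclude 0. Over the 39983 shared places of the genome with a recovered count the median was the same 0.17, and 63.8% were higher in KMT2D-KD. Width differed more. The covered stretch was wider in KMT2D-KD at 27 of the 30 places, with median widths of 366 bases in NC and 701 in KMT2D-KD, beside 65.9% of all shared places, where the medians were 485 and 627 bases. Intervals of at least 1000 bases numbered 1 in NC (1.67%) and 7 in KMT2D-KD (7.87%), beside 8.50% and 11.4% of the whole lists. Intervals with a −log10 q of at least 5 numbered 9 (15%, 7.10% to 26.6%) and 23 (25.8%, 17.1% to 36.2%), beside 25.3% and 32.4% of the lists.

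**Figure D3:**
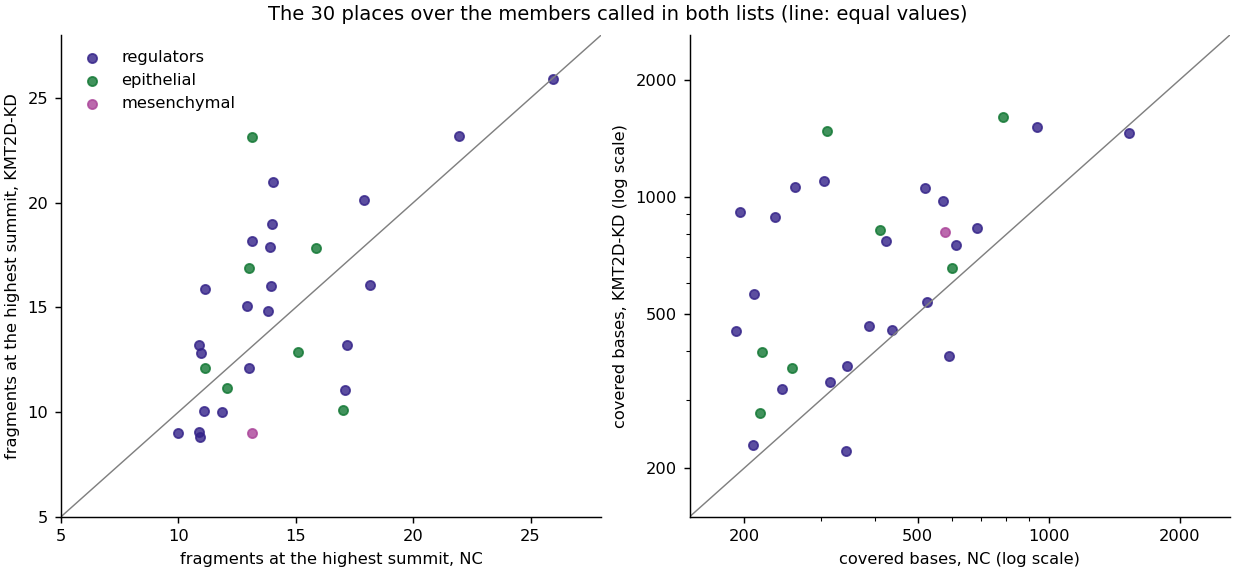
The 30 places over the EMT genes called in both lists, with fragments at the highest summit (left, whole numbers shifted slightly so that points do not hide each other) and covered bases (right, log scales), NC across and KMT2D-KD up. Fragments lie on both sides of the line of equal values, whereas 27 of 30 places lie above it for covered bases.

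By position, most intervals lay beyond the transcripts or in introns. Of the 60 NC intervals 26 lay downstream of the gene's MANE Select transcript, 17 in introns, 15 upstream, 1 over a coding exon and 1 within 1 kb of the transcript start. Of the 89 KMT2D-KD intervals 35 lay downstream, 28 in introns, 24 upstream, 1 over a coding exon and 1 within 1 kb of the start. No interval lay within 1000 bases of the 5′ end of another protein-coding gene. Within 1000 bases of the start of any protein-coding gene lay 1.82% of the NC list and 2.56% of the KMT2D-KD list, beside 1.67% and 1.12% here, and such stretches made up 1.66% of the windows. No KMT2D or EBF2 interval lay in any of the 10 windows in either condition. These 4 lists held 238 to 318 intervals each, and 1.25% to 1.68% of protein-coding genes had one in their window, so a gene without one was the usual case.

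**Figure D4:**
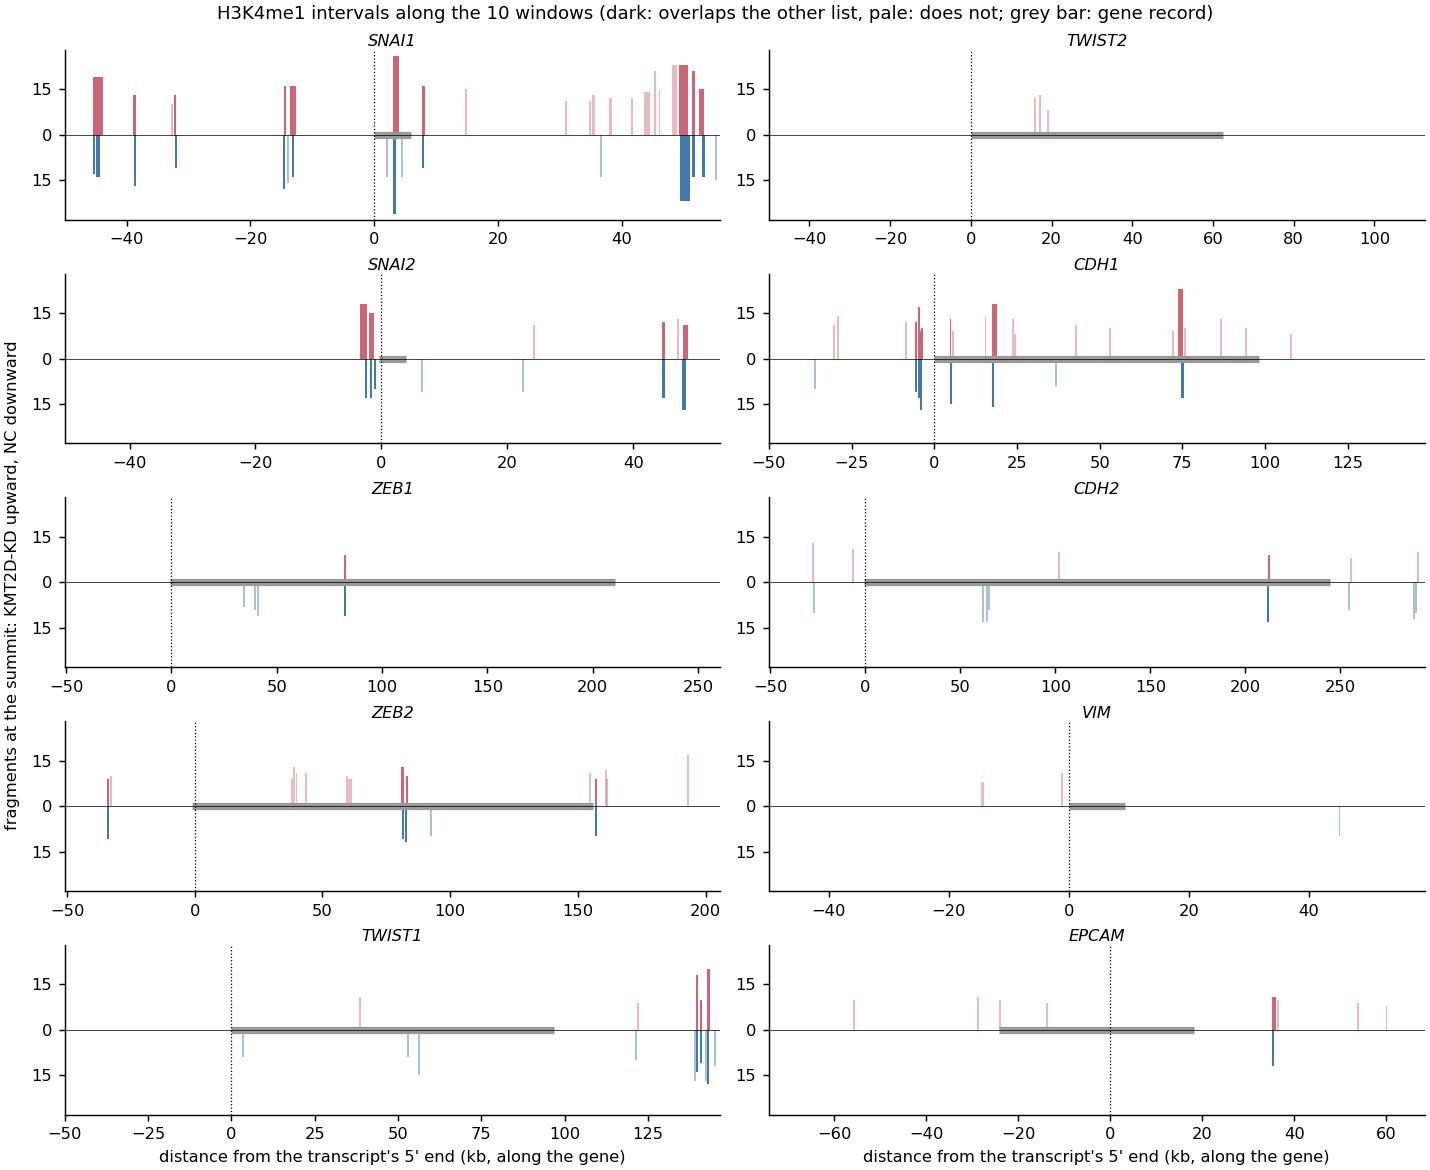
H3K4me1 intervals along the 10 windows, by distance from the 5′ end of the MANE Select transcript in kb, with the fragments at each summit as height (KMT2D-KD upward, NC downward, narrow intervals drawn slightly wider than they are). Dark bars overlap an interval of the other list and pale bars do not, and the grey bar is the gene record. Pale KMT2D-KD bars outnumber pale NC bars at 30 to 49 kb at SNAI1 and in the gene body of CDH1, whereas pale NC bars are the more frequent ones at TWIST1 and CDH2.

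SNAI1, a zinc finger repressor that binds E-boxes at the CDH1 promoter, lies on chromosome 20 from 49982980 to 49988886 (plus strand). It held 16 NC and 21 KMT2D-KD intervals, covering 6495 and 12140 bases, 1.87 times as much in KMT2D-KD. The log2 ratio of the numbers was 0.39 (−0.62 to 1.43), and in the 1 Mb on either side of the window the ratio was 1.49 (191 and 285 intervals). The strongest interval of the gene was the same in both lists, in the intron 3.4 kb after the start, with 26 fragments in each. It was 521 bases wide in NC and 1052 in KMT2D-KD. Over the gene body alone, NC had 3 intervals and KMT2D-KD 1, covering 1103 and 1052 bases, so the larger cover in KMT2D-KD lay outside the gene. Between 30 and 49 kb downstream, a stretch singled out after its values were seen, NC had 1 interval with 14 fragments and KMT2D-KD had 9 with 11 to 23 fragments, none of them shared. The nearest edge of an interval was 1882 bases from the transcript start in NC and 3031 in KMT2D-KD.

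Sequences are shown for the SNAI1 interval with the most fragments in both lists and for the strongest one found in KMT2D-KD only, to show what lies under a place common to both and under a place of the knockdown list alone. Each is the 200 bases around the KMT2D-KD summit on the plus strand of hg38. Capitals mark matches to the E-box CAGGTG (or CACCTG on the other strand), the AP-1 motif TGANTCA and the forkhead motif TGTTTAC (or GTAAACA).
SNAI1 intron, both lists, chr20:49986252-49986451: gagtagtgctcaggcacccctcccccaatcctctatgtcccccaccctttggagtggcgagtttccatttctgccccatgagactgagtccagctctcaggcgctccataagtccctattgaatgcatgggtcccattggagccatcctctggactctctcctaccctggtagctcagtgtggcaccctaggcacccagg
SNAI1 downstream, KMT2D-KD only, chr20:50031639-50031838: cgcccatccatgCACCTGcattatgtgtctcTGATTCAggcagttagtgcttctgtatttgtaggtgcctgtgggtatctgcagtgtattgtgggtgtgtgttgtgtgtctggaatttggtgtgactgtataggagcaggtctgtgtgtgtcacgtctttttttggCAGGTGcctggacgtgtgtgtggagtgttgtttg
The intronic place held no match. The downstream one, whose summit lay 48.8 kb after the transcript start and had 23 fragments and whose nearest NC interval was 504 bases away, held 2 E-box matches and 1 AP-1 match. A match is a description of the letters and not of a bound factor.

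SNAI2, the close relative known as Slug, lies on chromosome 8 from 48917598 to 48921740 (minus strand). It held 7 NC and 6 KMT2D-KD intervals, covering 2660 and 3624 bases. Fewer intervals thus covered 1.36 times as many bases, and the counting interval of the number (log2 −0.22, −2.07 to 1.57) included 0. The mark flanked the start of the gene: the nearest interval edge was 926 bases away in NC and 1161 in KMT2D-KD, the shortest distance of the 6 regulators in either list. The place 2.5 kb upstream was 262 bases wide in NC and 1055 in KMT2D-KD. Its summit had 13 fragments in NC and 18 in KMT2D-KD, where this place was the strongest of the gene. The place 47.9 kb downstream, the strongest in NC, had 17 fragments there and 11 in KMT2D-KD.

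ZEB1, a zinc finger homeodomain repressor held down in epithelial cells by the miR-200 family, lies on chromosome 10 from 31318495 to 31529814 (plus strand). It held 4 NC and 1 KMT2D-KD intervals, covering 1028 and 222 bases, 4.63-fold lower in KMT2D-KD. All were intronic and weak, with 8 to 11 fragments in NC and 9 in KMT2D-KD. The place 82.4 kb after the start was in both lists, and the 3 NC intervals at 34.2, 39.9 and 40.9 kb had no KMT2D-KD interval within 1000 bases. The log2 ratio of the numbers was −2 (−7.62 to 1.34), so 4 against 1 is within counting error. With 100 kb on either side of the gene, the direction turned, to 1936 bases in NC and 2985 in KMT2D-KD.

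ZEB2, the second ZEB factor, lies on chromosome 2 from 144364364 to 144521057 (minus strand). It held 5 NC and 16 KMT2D-KD intervals, covering 1832 and 7679 bases, 4.19 times as much. In number the log2 ratio was 1.68 (0.16 to 3.48), an interval that excluded 0 and included the 0.51 of the whole lists. It came to include 0 in 5 of 9 alternatives, among them equal numbers of top intervals (5 and 10, −0.68 to 2.90). In the 1 Mb on either side of the window there were 15 NC and 17 KMT2D-KD intervals. Within the gene, 37 to 62 kb after the start, NC had no interval and KMT2D-KD had 7, with 9 to 13 fragments each. That stretch was singled out after its values were seen. The strongest KMT2D-KD interval lay 193 kb after the start, in an intron of the neighbouring gene GTDC1, and had 17 fragments. Its sequence is shown because it was the strongest place at ZEB2 and absent from the NC list.
ZEB2 downstream, KMT2D-KD only, chr2:144327002-144327201: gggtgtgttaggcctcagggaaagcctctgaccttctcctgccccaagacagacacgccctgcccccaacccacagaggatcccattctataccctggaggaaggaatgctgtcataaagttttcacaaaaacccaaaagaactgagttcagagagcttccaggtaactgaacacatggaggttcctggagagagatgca
No motif matched there. Of the 12 KMT2D-KD intervals without an NC counterpart, 11 had none within 1000 bases either.

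TWIST1, a basic helix-loop-helix factor that drives EMT in development, lies on chromosome 7 from 19020991 to 19117636 (minus strand), and its MANE Select transcript takes up only the start of that record. It held 10 NC and 5 KMT2D-KD intervals, covering 3643 and 2232 bases, 1.63-fold lower in KMT2D-KD. The log2 ratio of the numbers was −1 (−2.90 to 0.68), while the 1 Mb on either side held 47 NC and 63 KMT2D-KD intervals. In both lists the strongest signal lay far from the gene, 139 to 145 kb after the start in introns of HDAC9, where NC had 6 intervals with 11 to 18 fragments and KMT2D-KD 3 with 10 to 20. The place at 143 kb was shared, with 18 fragments over 196 bases in NC and 20 over 912 bases in KMT2D-KD. The NC interval with the highest −log10 q, at 142 kb with 17 fragments, overlapped no KMT2D-KD interval, although one ended within 1000 bases of it, and its sequence is shown since it had the highest −log10 q of all intervals of the 10 genes found in NC only.
TWIST1 downstream, NC only, chr7:18975215-18975414: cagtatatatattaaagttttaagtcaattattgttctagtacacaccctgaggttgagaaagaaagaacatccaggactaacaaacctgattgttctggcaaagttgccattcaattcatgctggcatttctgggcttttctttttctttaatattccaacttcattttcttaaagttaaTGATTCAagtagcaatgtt
It held 1 AP-1 match. The nearest interval to the transcript start was 3484 bases away in NC, with 9 fragments, and 38417 bases away in KMT2D-KD. Within 50 kb of the start alone, NC had 231 covered bases and KMT2D-KD 301, so the lower cover in KMT2D-KD came from beyond that distance.

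TWIST2, the related factor, lies on chromosome 2 from 238848032 to 238910534 (plus strand). It had no interval in NC, with a counting interval of up to 2.27 intervals per 100 kb of window. In KMT2D-KD it had 3 intervals, all intronic, between 16.0 and 19.2 kb after the start, with 12, 13 and 8 fragments and 659 covered bases in all. Of all protein-coding genes, 10.8% had no NC interval and at least 1 in KMT2D-KD. The 1 Mb on either side held 25 NC and 67 KMT2D-KD intervals, the largest ratio beside any of the 10 windows (2.68).

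CDH1 encodes E-cadherin, the adhesion protein of epithelial junctions whose loss is a hallmark of EMT, and lies on chromosome 16 from 68737292 to 68835537 (plus strand). It held 8 NC and 21 KMT2D-KD intervals, covering 3179 and 10041 bases, 3.16 times as much. In number the log2 ratio was 1.39 (0.16 to 2.78), an interval that excluded 0 and included the 0.51 of the whole lists, and the 1 Mb on either side held 135 and 192 intervals, a ratio of 1.42. The interval came to include 0 in 7 of 11 alternatives, among them equal numbers of top intervals (8 and 15, −0.42 to 2.35), and at a fold enrichment of at least 5 the numbers were 2 and 2. Between 5 and 95 kb after the start, within the transcribed region, NC had 4 intervals over 1687 bases and KMT2D-KD 13 over 7303 bases. The strongest KMT2D-KD interval lay 74.8 kb after the start over a coding exon. This place was 787 bases wide in NC and 1606 in KMT2D-KD. Its summit had 13 fragments in NC and 23 in KMT2D-KD, the largest difference in fragments of the 30 shared places (log2 0.91, −0.13 to 2.02). The place 3.9 kb upstream, the strongest in NC, went the other way, with 17 fragments in NC and 10 in KMT2D-KD (log2 −0.68, −1.97 to 0.53). Neither difference exceeded its counting interval. Of the 14 KMT2D-KD intervals without an NC counterpart, 12 had none within 1000 bases, and they had 8 to 14 fragments each.

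The exonic place and the KMT2D-KD-only interval of CDH1 with the highest −log10 q (13 fragments, intron, 23.8 kb after the start) are shown as the widest place of the gene and the strongest of the knockdown list alone, again as 200 bases around the summit on the plus strand.
CDH1 coding exon, both lists, chr16:68812030-68812229: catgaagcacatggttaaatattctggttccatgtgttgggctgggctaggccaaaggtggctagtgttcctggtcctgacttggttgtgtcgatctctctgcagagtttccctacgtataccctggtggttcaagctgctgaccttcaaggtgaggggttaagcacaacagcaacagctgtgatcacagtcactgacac
CDH1 intron, KMT2D-KD only, chr16:68760967-68761166: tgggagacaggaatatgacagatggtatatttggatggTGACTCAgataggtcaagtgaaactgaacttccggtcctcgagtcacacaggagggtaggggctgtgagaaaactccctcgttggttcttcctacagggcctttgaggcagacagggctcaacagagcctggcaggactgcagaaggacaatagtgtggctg
The exonic place held no match and the intronic one held 1 AP-1 match. Part of the signal at CDH1 lay on repeated sequence. At 5 of the 21 KMT2D-KD intervals, more than 50% of the 31-base words around the summit occurred elsewhere in hg38. This was so at 0 of the 8 NC intervals, but the cutoff split places called in both lists. At the shared places 5.7 and 3.9 kb upstream and 5.0 kb after the start, KMT2D-KD intervals reached 79.4%, 82.9% and 64.1%. The NC intervals there had 40%, 36.5% and 39.4%. Without the intervals past that cutoff CDH1 held 8 NC and 16 KMT2D-KD intervals, covering 3179 and 8288 bases. Intervals at those shared places were thus left out on the KMT2D-KD side only.

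EPCAM, an adhesion molecule of simple epithelia, lies on chromosome 2 from 47345158 to 47387601 (plus strand). It held 1 NC and 8 KMT2D-KD intervals, covering 409 and 2872 bases, 7.02 times as much. In number the log2 ratio was 3, with a counting interval of 0.10 to 8.47 that is wide because NC had 1 interval and that included the 0.51 of the whole lists. It came to include 0 in 5 of 6 alternatives, among them equal numbers of top intervals (1 and 3, −2.05 to 7.30) and 100 kb on either side (4 and 11, −0.30 to 3.57). The remaining alternative, without intervals at other genes' 5′ ends, removed none and repeated the value. The 1 Mb on either side held 118 NC and 164 KMT2D-KD intervals. The only NC interval lay 35.5 kb after the start and had 12 fragments, against 11 in KMT2D-KD. At this shared place 75.3% of the 31-base words around the summit in NC and 77.1% in KMT2D-KD occurred elsewhere in the genome. The 7 intervals found in KMT2D-KD only had 8 to 11 fragments, close to the calling limit. Of the 8 KMT2D-KD intervals 4 lay upstream of the MANE Select transcript. Those 55.7 and 28.6 kb upstream lay in introns of the EPCAM-DT lncRNA. The other upstream ones, nearer the transcript start, lay within the EPCAM gene record and not in EPCAM-DT.

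CDH2, which encodes N-cadherin, the cadherin of mesenchymal and neural cells, lies on chromosome 18 from 27932879 to 28177946 (minus strand). It held 8 NC and 6 KMT2D-KD intervals, covering 2780 and 2314 bases, 1.20-fold lower in KMT2D-KD. The log2 ratio of the numbers was −0.42 (−2.22 to 1.30). The direction of the covered bases turned for intervals with a −log10 q of at least 3 (1096 and 1215 bases) and within 50 kb of the 5′ end (313 and 817 bases), and with equal numbers of top intervals they were 2780 and 1215. The intervals hardly coincided: 1 NC interval of 8 overlapped a KMT2D-KD interval, at a place 212 kb after the start with 13 fragments in NC and 9 in KMT2D-KD. A group of 3 NC intervals 62 to 66 kb after the start, with 9 to 13 fragments, had no counterpart. The strongest KMT2D-KD interval, with 13 fragments 27.4 kb upstream, lay less than 1000 bases from an NC interval without overlapping it. The shared place is printed because it was the only one and held 2 E-box matches.
CDH2 intron, both lists, chr18:27965139-27965338: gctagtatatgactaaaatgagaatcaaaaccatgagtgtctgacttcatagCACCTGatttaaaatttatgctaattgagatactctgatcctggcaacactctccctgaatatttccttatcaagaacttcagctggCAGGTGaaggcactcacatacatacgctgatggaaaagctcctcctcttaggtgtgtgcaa

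VIM encodes vimentin, the intermediate filament of mesenchymal cells, and lies on chromosome 10 from 17228241 to 17237593 (plus strand). It held 1 NC and 2 KMT2D-KD intervals, covering 328 and 751 bases, with nothing shared. The NC interval lay 45.2 kb after the start and had 10 fragments. One of the KMT2D-KD intervals, with 11 fragments, ended 920 bases before the start, in an intron of VIM-AS1, and was the KMT2D-KD interval nearest to a start among the 10 genes. The other, with 8 fragments, lay 14.5 kb upstream. With equal numbers of top intervals VIM had 328 covered bases in NC and 257 in KMT2D-KD, so its direction rests on 1 weak interval.

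The sequence under the summits was compared with that under all intervals of the same list. An E-box match lay in the 200 bases around the summit of 13 of 60 NC intervals (21.7%, 12.1% to 34.2%), beside 16.7% of the NC list. In KMT2D-KD it was 27 of 89 (30.3%, 21.0% to 41.0%), beside 20.04% of that list. AP-1 matches were found at 4 of 60 NC intervals (6.67%) and 8 of 89 KMT2D-KD intervals (8.99%), beside 8.06% and 7.78% of the lists. Forkhead matches were found at 2 of 60 NC intervals and 0 of 89 KMT2D-KD intervals (0% to 4.06%), beside 3.16% and 2.74%. Of these 6 list shares, the E-box share of the KMT2D-KD list was the only one outside the counting interval of the EMT genes, and it was lower. Median GC content around the summits was 44.3% in NC and 47% in KMT2D-KD against 44% and 46% in the lists. The 12 RefSeq promoter windows (hg38, around transcript starts) were found for 5 of the genes, CDH2, TWIST2, VIM, ZEB1 and ZEB2, and most of them were of ZEB1. They held an E-box match in 2, both of ZEB1, beside 20.6% of all promoter windows. An AP-1 match lay in 1 window, of CDH2, and a forkhead match in 1, of ZEB1, beside 7.71% and 3.42% of all.

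Wider lists of the same pathway are read against the 87.6% of genes with more covered bases in KMT2D-KD and the 62.7% at least 1.5 times higher. Of 20 epithelial junction and splicing genes, 20 had more covered bases in KMT2D-KD, and 12 of the 16 with intervals in both lists were at least 1.5 times higher, with a median log2 ratio of 1.12. Genes that lie close together share part of their windows, so genes are not all independent. Some intervals counted for CDH1, for example, lay in introns of CDH3, which is in this list. Among genes with at least 1000 covered bases in each list, the only ones named as highest or lowest here, the highest was LLGL2, a polarity gene (2191 bases in NC, 7900 in KMT2D-KD, log2 1.85), and the lowest OCLN, which encodes occludin (3751 and 4371 bases, log2 0.22). Of 20 mesenchymal genes, 17 had more and 3 fewer covered bases in KMT2D-KD, 12 of 19 were at least 1.5 times higher and 1 lower, and the median log2 ratio was 0.70. The 3 with fewer, named after their values were seen, were MMP14 (831 and 279 bases), POSTN (1172 and 832 bases) and LOX (226 and 0 bases). By the same rule THY1 was the highest (2092 and 5152 bases, log2 1.30), and the hyaluronan receptor gene CD44 the lowest (28230 and 28768 bases, log2 0.03). Of 15 other EMT regulators, 13 had intervals and all 13 had more covered bases in KMT2D-KD, with a median log2 ratio of 0.94 over 11. By that rule HMGA2 was the highest (log2 1.84) and PRRX1 the lowest (log2 0.20). The miR-200 genes, which repress ZEB1 and ZEB2, fell into 2 clusters: MIR200C and MIR141 shared 7 NC and 10 KMT2D-KD intervals (2611 and 4224 bases), and MIR200A, MIR200B and MIR429 had 0 in both. All protein-coding genes had a median log2 ratio of 0.81. Among the 6 regulators and these 15 others, ZEB1 and TWIST1 were the only ones with fewer covered bases in KMT2D-KD.

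**Figure D5:**
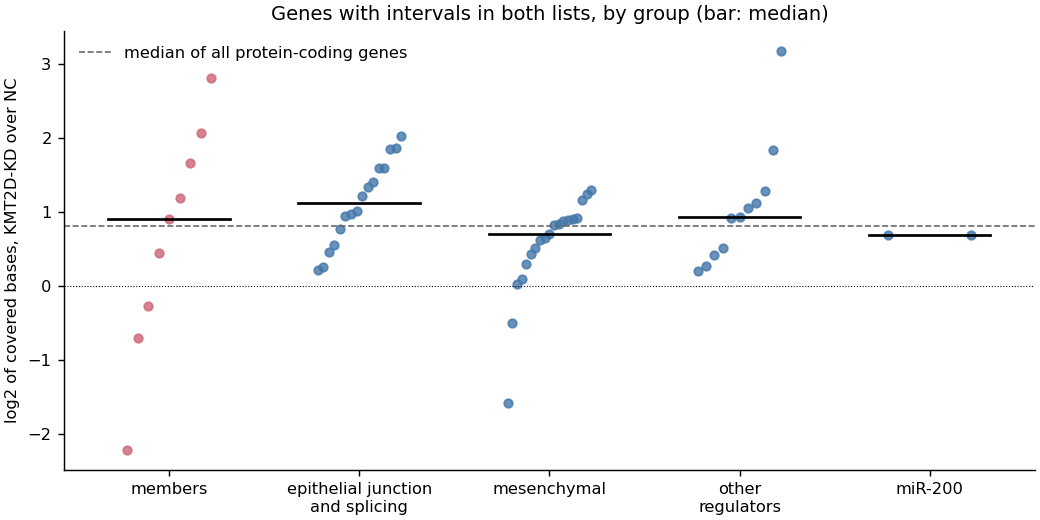
Log2 ratio of covered bases, KMT2D-KD over NC, for genes with intervals in both lists, 1 point per gene, by group, with the median as a bar and the median of all protein-coding genes (0.81) as a dashed line. The EMT genes spread from −2.21 to 2.81, on both sides of the dashed line.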

How the data were processed

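ChIP-seq libraries of SW1990 cells were used through their deposited lists in narrowPeak layout, 1 per ChIP library, called against the SW1990 input. Reads were filtered by the authors with in-house perl scripts and aligned with bwa, and the submitters' processing notes name BWA, MACS2, HOMER and hg38. Settings of the peak caller and the treatment of duplicate reads are not given in the sources used here. For each interval the authors deposited a fold enrichment over input, which is a ratio, with its p-value and q-value as −log10. The deposited score column was not used.

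Fragments at a summit were solved from the fold enrichment, (fragments + 1) / (background + 1), and the Poisson p-value, to within 0.001 in −log10 p. All but 4 NC and 6 KMT2D-KD H3K4me1 intervals gave a whole number. Depth was the lowest background per narrowest interval. Coordinates are hg38, counted from 1, with GENCODE release 44 genes and distances from the MANE Select transcript start. Intervals overlapping by at least 1 base were shared. Intervals at 95% are exact binomial ones for shares and for ratios of 2 counts, and exact Poisson ones for counts per 100 kb. Places are overlapping intervals of both lists joined. Python 3.11.15, numpy 2.4.6, scipy 1.17.1, pandas 2.3.3 and matplotlib 3.10.9 were used, and the counting code was tested on simulated data.

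Groups came from the sample titles. The 10 genes and the wider lists were chosen with earlier results of these data known. In each window the interval with the highest −log10 q of each list, and the highest found in that list only, were eligible to be named. In a wider list the genes with the highest and lowest log2 ratio were named among those with at least 1000 covered bases in each condition. The neighbouring 1 Mb, the named stretches and the recurrence of 31-base words were chosen after seeing the data. The KMT2D and EBF2 lists were searched for intervals in the windows only.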

Additional observations from a re-analysis of the deposited data

How the results depend on the processing

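With 1 library per condition, nothing below has a replicate check. No paired analysis was possible because the labels give no replicate numbers and each condition has 1 library. The log2 ratio of the numbers of intervals over the 10 genes was 1.35 for q-values past a −log10 of 5, 1.10 at a fold enrichment of at least 5 (−0.28 to 2.64) and 0.047 with equal numbers of top intervals (−0.49 to 0.58). That of covered bases was 1.83 for those q-values and 1.90 at a fold enrichment of at least 5. The share of NC intervals also in KMT2D-KD was 38.1% over gene bodies only, 70.0% within 1000 bases and 77.8% for NC intervals past that q-value. The share of KMT2D-KD intervals also in NC was 21.7% with both lists past that q-value, 20% at a fold enrichment of at least 5, 24.2% over gene bodies only, 19.1% with an overlap of at least 50%, 48.3% within 1000 bases and 60.9% with the KMT2D-KD list alone past that q-value. Over gene bodies only, 4 genes had more covered bases in KMT2D-KD in place of 7. The other 58 of 73 recomputed values stayed within the counting interval, or within 1.5-fold, of the value reported. The alternative without intervals at other genes' 5′ ends removed no interval. Its values repeat those reported and are counted among those that stayed. Covered bases turned direction for VIM with equal numbers (log2 −0.35), SNAI1 over its gene body (−0.068), ZEB1 with 100 kb either side (0.62), TWIST1 within 50 kb of its 5′ end (0.38) and CDH2 there (1.38) and at a −log10 q of at least 3 (0.15). They stayed higher in KMT2D-KD wherever a value could be had for CDH1 (11 alternatives, 1.29 to 2.11), ZEB2 (9, 1.58 to 2.82) and EPCAM (6, 1.43 to 2.99). The counting interval of the number of intervals excluded 0 for these 3 genes and came to include it in 7, 5 and 5 of those alternatives. For EPCAM the only alternative that still excluded 0 was the one that removed no interval. In 62 cases a gene had no interval left in a list and gave no value. The alternative without recurring sequence was chosen after seeing the data. The cause of each change was not tested. The low number of fragments at the summits limits these results: most intervals lay near the number needed for a call. Why the numbers were low was not tested.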
